A study of Rattus norvegicus with 24 samples.

Results

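The 9 genes described here act at successive steps by which a precursor becomes a neuron with an axon: Neurod1, Neurod2, Neurod6, Sox2, Sox11, Dcx, Tubb3, Stmn2 and Gap43. They were taken by gene name from the 32883 reference genes that each table of frontal cortex lists, and each name matched 1 gene. All 9 passed the filter on low values, which left 15644 genes for the test. Levels are given as scaled coverage, the mean read depth per base of a gene divided by the sum over all reference genes of the rat and multiplied by 1000000, and the filter asked for a 24-rat average of 1 or more. The rats were adult male Sprague-Dawley, and frontal cortex was taken 24 h after inhalation exposure to a tungsten particle aerosol. The labels give 3 groups of 8 rats: Control at 0 mg/m3, Low at 5 mg/m3 and High at 80 mg/m3. All 24 carry the same treatment label, and 1 library stands for 1 rat, so rats are named here by group and library number, from Control 49 to High 72. The samples are bulk tissue, in which fewer cells of a type and less RNA per cell cannot be told apart.

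Neurod1, Neurod2 and Neurod6 are basic helix-loop-helix (bHLH) transcription factors that pair with E proteins, bind short E-box motifs and promote neuronal differentiation; Neurod2 and Neurod6 remain expressed in mature excitatory neurons of the cortex. Sox2 maintains neural stem cells and is also expressed by adult glia, while Sox11 is switched on in newborn neurons. Dcx binds microtubules in migrating neuroblasts, Tubb3 is the neuronal beta-tubulin, Stmn2 is a tubulin-binding protein of growth cones, and Gap43 is a membrane protein of growing axons and presynaptic terminals. Growth genes such as Gap43 and Sox11 are known to rise in neurons whose axons are damaged.

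Sequenced bases, read from the ratio of the deposited coverage to FPKM, ranged over 5.05 to 7.86 gigabases (Control), 3.34 to 6.42 (Low) and 4.95 to 7.65 (High). The 6 neuron markers (Rbfox3, Snap25, Syt1, Slc17a7, Gad1, Gad2) had a summed scaled coverage of 1509 to 2067 (Control), 1412 to 2059 (Low) and 1148 to 2060 (High), so neuronal tissue was present in every rat. High 65, High 66 and High 67 stood apart from the other High rats. Their 7 striatum markers (Drd1, Drd2, Ppp1r1b, Adora2a, Penk, Tac1, Rgs9) summed to 1564, 984 and 1157 scaled coverage against 187 to 459 in the other 5 High rats. The Control rats ranged from 406 through a median of 617 to 976 in Control 55, close to High 66. The Low rats ranged from 279 through a median of 470 to 718. Libraries 56 to 62, 1 of Control and 6 of Low, had 4.79% or more of their mitochondrial coverage on the minus strand, while the other 17 had at most 2.70%. The 8 Low tables list reference genes only, whereas the 16 tables of Control and High also list assembled loci, so exposure and a possible difference in quantification cannot be told apart in either comparison of Low.

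The stretches before the starts of Neurod6, Neurod2, Sox11 and Dcx are shown because the first pair and the second pair each moved together from rat to rat, as described further on. Whether E-box motifs have a part in that was not tested. RefSeq (GRCr8) held a promoter window for 7 of the 9 genes, and Gap43 and Stmn2 had no entry. Each line gives the 250 bases before the start, read 5′ to 3′ on the strand of the gene, with every CANNTG, the general E-box, in capitals; the motif reads the same on both strands.
Neurod6, chr4:86180156-86180405, minus strand: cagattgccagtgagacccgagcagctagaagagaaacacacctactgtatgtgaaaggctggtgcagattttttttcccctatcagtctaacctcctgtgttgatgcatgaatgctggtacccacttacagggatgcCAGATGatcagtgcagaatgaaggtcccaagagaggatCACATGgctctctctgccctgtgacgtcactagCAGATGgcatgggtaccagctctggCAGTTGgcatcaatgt
Neurod2, chr10:83824278-83824527, minus strand: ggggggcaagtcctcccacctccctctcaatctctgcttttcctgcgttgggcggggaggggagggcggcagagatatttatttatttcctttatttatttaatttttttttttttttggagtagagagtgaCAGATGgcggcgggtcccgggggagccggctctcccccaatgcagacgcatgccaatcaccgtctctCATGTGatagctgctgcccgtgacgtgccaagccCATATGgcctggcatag
Sox11, chr6:49738795-49739044, minus strand: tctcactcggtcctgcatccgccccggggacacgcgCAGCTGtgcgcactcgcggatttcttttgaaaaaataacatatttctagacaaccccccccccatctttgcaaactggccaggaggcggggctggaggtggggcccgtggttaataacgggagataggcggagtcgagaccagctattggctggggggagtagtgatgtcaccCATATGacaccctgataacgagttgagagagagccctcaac
Dcx, chrX:112304162-112304411, minus strand: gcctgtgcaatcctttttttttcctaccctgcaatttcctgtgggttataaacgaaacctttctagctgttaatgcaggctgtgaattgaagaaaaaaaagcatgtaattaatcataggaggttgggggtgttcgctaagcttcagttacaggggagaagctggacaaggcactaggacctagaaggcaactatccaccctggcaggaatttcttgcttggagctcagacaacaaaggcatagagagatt
Neurod6 held 4 matches, starting 112, 74, 41 and 16 bases before the start. Neurod2 held 3, at 118, 51 and 17 bases, Sox11 held 2, at 214 and 41 bases, and Dcx held 0. Of the 33469 promoter windows of the same length, 65.5% held at least 1 CANNTG. The narrower CAGATG, the form that Neurod proteins are known to prefer, was searched on both strands, as CAGATG or CATCTG. It was present 2 times in Neurod6 and 1 time in Neurod2, in 0 of the other 5 windows of the set, and in 14.0% of all windows. CAGATG is a special case of CANNTG, so the counts overlap.

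The 9 genes fell into 3 ranges of scaled coverage. Gap43, Tubb3 and Stmn2 stood highest. In Control, Gap43 averaged 445 ± 60.1 (SD, n = 8), Tubb3 398 ± 36.7 and Stmn2 341 ± 31.8 scaled coverage, which placed Gap43 at rank 209 of the 32883 reference genes. Gap43 exceeded Tubb3 in 22 of the 24 rats and Tubb3 exceeded Stmn2 in 24 of 24, although the Control ranges of both neighbouring pairs overlap. The range in the middle held Neurod6 at 52.4 ± 13.1, Sox2 at 48.4 ± 5.18 and Neurod2 at 41.4 ± 8.84. Neurod6 was above Sox2 in 4 of 8 Control rats and Sox2 above Neurod2 in 6 of 8, so these neighbouring pairs overlap. Neurod6 was above Neurod2 in every Control rat, with a within-rat log2 ratio of 0.15 to 0.78. Dcx followed at 13.2 ± 3.58, and Sox11 at 5.73 ± 2.08 and Neurod1 at 5.26 ± 0.913 were lowest, with Sox11 above Neurod1 in 4 of 8 Control rats. All 3 lie well below the top: Neurod1 stood at rank 11760.

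**Figure D1:**
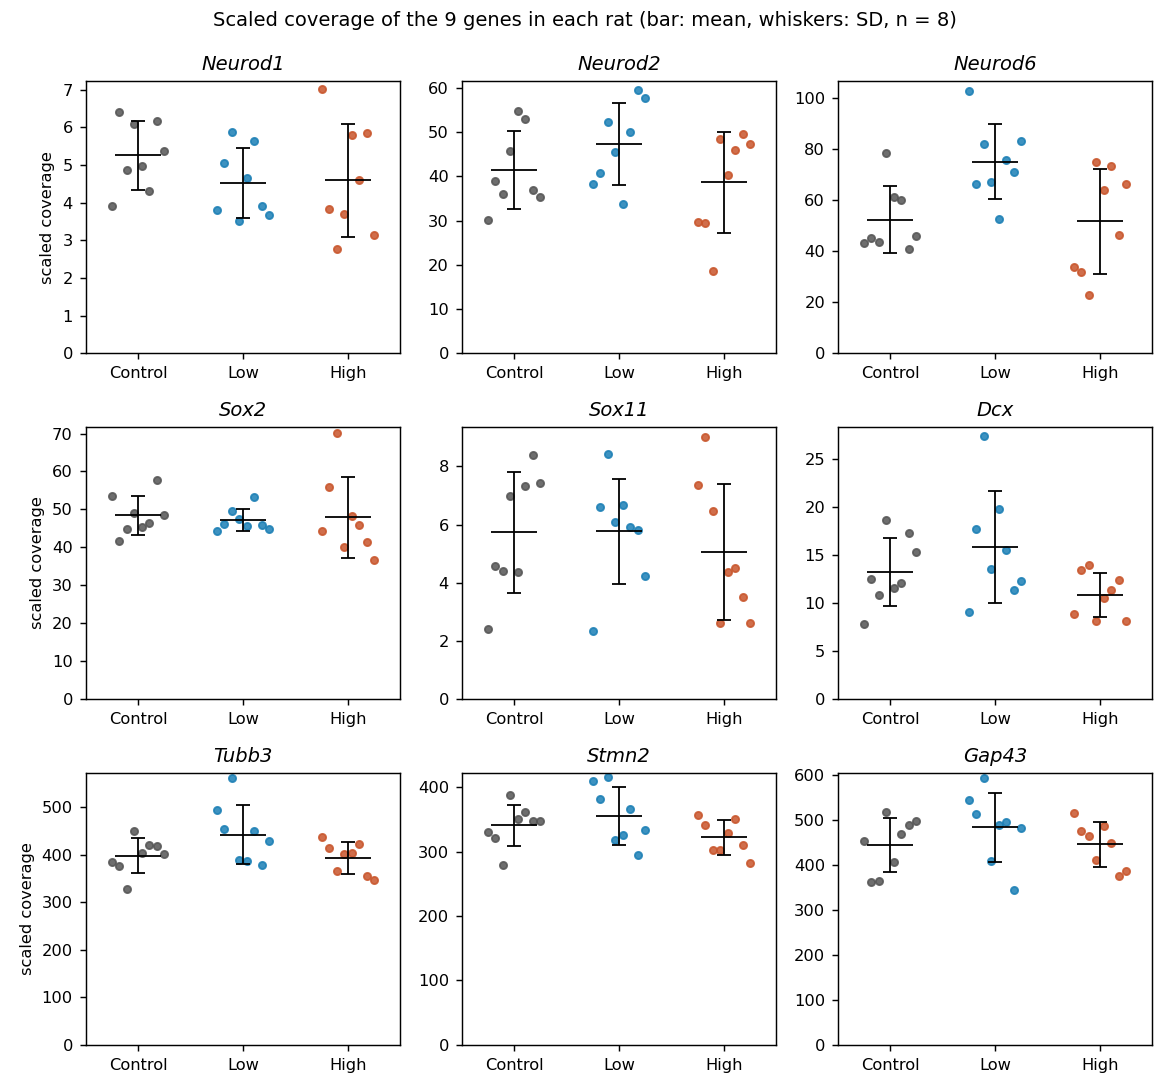
Each panel plots the scaled coverage (axis from 0) of 1 gene in the 8 rats of Control, Low and High, with the mean and SD of each group. The groups overlap for all 9 genes; 3 High rats stand low for Neurod2 and Neurod6 and high for Sox11.

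The first question the design asks is whether exposure at 5 mg/m3 moved these genes. Over all genes, 956 of 15644 (6.11%) passed an adjusted p of 0.05 in Low against Control, by limma with Benjamini-Hochberg adjustment over all genes tested. For the 9 genes here the counts were 0 by limma, 1 (Neurod6) by limma before adjustment, where 18.4% of all genes were below 0.05, and 0 by the exact Wilcoxon rank-sum test, where 1.66% of all genes passed. Fitted values were higher in Low for 7 of 9 and lower for Neurod1 and Sox2, with a median log2 difference of 0.11 against 0.06 over all genes; without scaling 1 of the 9 signs changed, with median-of-ratios scaling 2, and with libraries 56 to 62 as a covariate 4.

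Neurod6, the factor of mature excitatory cortical neurons, had the largest difference. Its scaled coverage in Control ran from 41.0 in Control 55 through a median of 45.6 to 78.5 in Control 52, and in Low from 52.7 in Low 61 through a median of 73.3 to 103 in Low 57. All 8 Low rats were above the Control median, and 3 of them were above every Control rat. The log2 difference was 0.52 (SE 0.21, 95% interval 0.09 to 0.95), a fold of 1.44, with an unadjusted limma p of 0.0195 and an adjusted p of 0.164. The adjusted p fell below the threshold when only Control and Low entered the fit (0.0491) and when High 65 to 67 were left out (0.0309), both of which change the estimate of the spread but not the difference. With libraries 56 to 62 as a covariate the difference was 0.59 (limma adjusted p = 0.484), and without those libraries, with 2 Low rats remaining at 70.9 and 83.3, it was 0.56 (limma adjusted p = 0.786).

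Neurod2, its close relative, ranged in Control from 30.2 through a median of 38.0 to 54.8 and in Low from 33.7 through 47.8 to 59.5 scaled coverage. The log2 difference of 0.19 (SE 0.17) was within the spread (limma adjusted p = 0.593). Neurod1 ranged from 3.90 through 5.18 to 6.41 in Control and from 3.52 through 4.28 to 5.87 in Low. Here 4 Low rats lay below every Control rat, but the log2 difference of -0.19 (SE 0.14) did not pass either (limma adjusted p = 0.507).

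Dcx, the neuroblast microtubule protein, varied widely within Low. Its Control values ran from 7.83 in Control 49 through a median of 12.2 to 18.6, and its Low values from 9.03 in Low 57 through 14.5 to 27.4 in Low 59, so that a single group spanned a 3.03-fold range. The log2 difference from Control was 0.21 (SE 0.18, limma adjusted p = 0.565), and with libraries 56 to 62 as a covariate it was -0.02. Sox11 in Low ranged from 2.34, again in Low 57, through 5.999 to 8.43 in Low 59, against 2.39 in Control 49 through 5.76 to 8.395 in Control 55, and the means of 5.77 and 5.73 scaled coverage were almost equal.

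The abundant axonal genes differed by small amounts. Tubb3 ranged from 327 through a median of 403 to 451 in Control and from 379 through 439 to 561 in Low, with 3 Low rats above every Control rat. Its log2 difference was 0.15 (SE 0.08, limma adjusted p = 0.317). Stmn2 differed by 0.06 (95% interval -0.10 to 0.21) and Gap43 by 0.11 (95% interval -0.09 to 0.32) on the log2 scale. Low 59 was the highest Low rat for Gap43, at 592, for Tubb3, for Stmn2, at 416, and for Dcx, Sox11 and Neurod1, whereas Low 63 was lowest for the 3 axonal genes. Sox2 was the steadiest gene of the set in Low, from 44.4 through 46.1 to 53.2 scaled coverage against 41.6 through 47.4 to 57.8 in Control, and its log2 difference was -0.03 (95% interval -0.23 to 0.16).

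**Figure D2:**
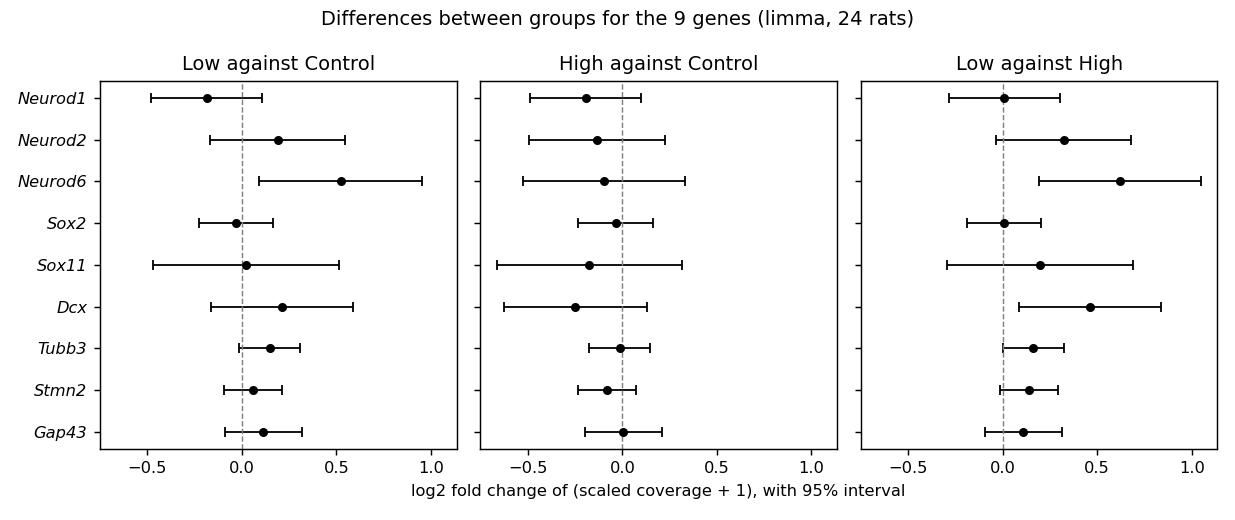
The log2 fold change of each gene (x axis, on scaled coverage + 1) is drawn with its 95% interval from limma for the 3 comparisons. The intervals of High against Control all include 0, while those of Neurod6 in both comparisons of Low, and of Dcx and Tubb3 in Low against High, do not, before adjustment.

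The next comparison sets 80 mg/m3 against Control, where 0 of 15644 genes (0%) passed by limma, with 330 (2.11%) below 0.05 before adjustment, and 0 of 15541 passed by the exact Wilcoxon test. For the 9 genes here limma gave 0 calls and 0 unadjusted p under 0.05, and the exact Wilcoxon test gave 0 calls; every adjusted limma p was 0.999. Differences ran from -0.25 for Dcx to 0.0050 for Gap43 on the log2 scale, 8 of 9 below 0, with a median of -0.10 against -0.03 over all genes. Of the 9 signs, 5 changed without scaling, 1 with median-of-ratios scaling, 3 with FPKM and 3 with TPM. The difference of Neurod1 was -0.19 as reported and 0.016 with FPKM and with TPM. The intervals differ in what they leave room for. The 95% interval of the fold was 0.886 to 1.11 for Tubb3, 0.851 to 1.05 for Stmn2, 0.870 to 1.16 for Gap43 and 0.851 to 1.12 for Sox2, whereas it was 0.694 to 1.26 for Neurod6, 0.648 to 1.09 for Dcx and 0.630 to 1.24 for Sox11.

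For several of the 9 genes the High group held 2 sets of rats. Neurod6 was 33.7, 31.7 and 22.9 scaled coverage in High 65, 66 and 67 and 46.4 to 75.1 in the other 5. All 3 were below every Control rat. Neurod2 was 29.6, 29.4 and 18.7 in the same rats, also below every Control rat, and 40.3 to 49.6 in the rest. Sox11 went the other way, with 7.36, 9.02 and 6.45 against 2.61 to 4.51. Sox2 was 44.4, 55.8 and 70.1 against 36.8 to 48.4, the value of High 67 being the highest of all 24 rats. Tubb3, at 438, 414 and 365 against 348 to 422, and Gap43, at 515, 475 and 465 against 375 to 486, were spread through the group. These 3 rats are the High rats with the highest striatum marker sums, whose part in the result was not tested. Without them the log2 difference of Neurod6 from Control was 0.32 instead of -0.10 and that of Dcx -0.33 instead of -0.25, with limma adjusted p of 0.9996 for both.

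Low against High compares the exposed groups, and here 1828 of 15644 genes (11.7%) passed. The counts for the 9 genes were 0 by limma, 3 by limma before adjustment (Neurod6, Dcx and Tubb3), where 29.1% of all genes were below 0.05, and 0 by the exact Wilcoxon test, where 6.39% of all genes passed. All 9 fitted values were higher in Low, with a median log2 difference of 0.16 against 0.09 over all genes, but 5 signs changed without scaling, 2 with median-of-ratios scaling and 4 with libraries 56 to 62 as a covariate. This comparison shares its Low rats with the first and its High rats with the second.

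Neurod6 came nearest to the threshold. Its mean was 75.1 ± 14.8 scaled coverage in Low and 51.7 ± 20.6 in High (SD, n = 8 each), 4 Low rats were above every High rat, and the log2 difference was 0.62 (SE 0.21, 95% interval 0.19 to 1.05) with an adjusted limma p of 0.0540. Leaving out 1 rat at a time moved the adjusted p between 0.0278 and 0.114, and it passed in 6 of the 24 fits: without Control 49, Low 61, High 68, High 69, High 70 or High 72. It also passed when mitochondrial genes were left out of the scaling (0.0344). Without High 65 to 67 the difference shrank to 0.20 (SE 0.16, limma adjusted p = 0.453). With libraries 56 to 62 as a covariate it was 0.70 (SE 0.29, limma adjusted p = 0.301), and without those libraries 0.68 (SE 0.36, limma adjusted p = 0.491).

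Dcx averaged 15.8 ± 5.82 in Low and 10.9 ± 2.32 in High, a log2 difference of 0.46 (SE 0.18, 95% interval 0.08 to 0.84, limma adjusted p = 0.0989). The High rats ran from 8.12 through a median of 10.96 to 13.9, and 4 of 8 Low rats were above all of them. The difference was 0.56 (limma adjusted p = 0.0355) without Low 57, the lowest Low rat, 0.55 (0.125) without High 65 to 67, and 0.18 (0.741) with libraries 56 to 62 as a covariate. Tubb3 averaged 443 ± 62.3 against 394 ± 33.3, with a log2 difference of 0.16 (SE 0.08, limma adjusted p = 0.168). Neurod2 differed by 0.32 (SE 0.17, adjusted p = 0.221) and Stmn2 by 0.14 (SE 0.07, adjusted p = 0.227). Neurod1 and Sox2 differed by 0.0080 and 0.0044, with 95% intervals of -0.29 to 0.30 and -0.19 to 0.20.

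The spread between rats of a group differed widely among the 9 genes. After removal of the group means, the SD of log2(scaled coverage + 1) was 0.15 for Stmn2, 0.16 for Tubb3, 0.19 for Sox2 and 0.21 for Gap43, all below the median of 0.22 over the genes tested. It was 0.29 for Neurod1, 0.37 for Neurod2, 0.38 for Dcx, 0.44 for Neurod6 and 0.50 for Sox11, and 86.7% of the genes tested had a smaller SD than Neurod6. The transcription factors other than Sox2, and Dcx, thus varied more from rat to rat than the abundant axonal genes did. They also stood far below the axonal genes in scaled coverage, and spread at equal level was not compared.

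Rats that were high for one gene were high for particular others. Over the 36 pairs of the 9 genes, Pearson's r of the log2 values over 24 rats with group means removed ran from -0.63 to 0.94, with a median of 0.29. These are descriptions of rats that share a tissue dissection and a scaling, and no test was made. The tightest group was axonal: Tubb3 with Stmn2 reached 0.94 (Spearman's rho 0.94), Stmn2 with Gap43 0.83 (rho 0.78) and Tubb3 with Gap43 0.81 (rho 0.81). Within Control, Low and High, Tubb3 with Stmn2 gave r of 0.99, 0.94 and 0.88. Without the 2 rats farthest from the median of the gene named first in a pair, these 3 pairs were 0.93, 0.77 and 0.77. They lay between 0.82 and 0.98 without scaling, with median-of-ratios scaling and with mitochondrial genes left out of the scaling. Within a rat, the log2 ratio of Gap43 to Stmn2, which no scaling touches, was 0.38 ± 0.13 in Control, 0.44 ± 0.11 in Low and 0.46 ± 0.11 in High.

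A further pair joined the genes of newborn neurons: Sox11 with Dcx had r of 0.76 (rho 0.71), and 0.88, 0.85 and 0.59 within Control, Low and High. Control 49 and Low 57 were lowest in their groups for both genes. Without the 2 rats farthest from the median of Sox11, r was 0.64, and without High 65 to 67 it was 0.85. Across rats the log2 ratio of Dcx to Stmn2 ran from -5.40 in Control 49 to -4.32 in Control 55, and from -5.50 in Low 57 to -3.92 in Low 59. A list of 13 progenitor and neuroblast markers, summed per rat, went with Dcx at r of 0.74 and with Sox11 at 0.63. For the other genes of the set r ran from -0.37 for Neurod2 to 0.65 for Sox2, with Gap43 at 0.51. In Control, Vim and Cd24 of that list averaged 102 and 43.9 scaled coverage, where the median sum was 198. The pair was not particular to that list: the astrocyte marker sum went with Sox11 at 0.79 and with Dcx at 0.70, and the microglia marker sum at 0.73 and 0.51.

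The last group was Neurod2 with Neurod6. Their r was 0.77 (rho 0.73), with 0.76 in Control, 0.32 in Low and 0.90 in High, and it was 0.47 without High 65 to 67. In Low 57 the genes parted: Neurod6 was at its highest of all 24 rats, 103, while Neurod2 was at 38.2, and the log2 ratio of Neurod6 to Neurod2 there was 1.43 against a Low mean of 0.67 ± 0.33 and a Control mean of 0.33 ± 0.22. Both genes ran against Sox2, Neurod2 at r of -0.63 and Neurod6 at -0.59, but without High 65 to 67 these were -0.21 and -0.11, without scaling 0.09 and -0.07, and with median-of-ratios scaling -0.76 and -0.56. Neurod1 stayed apart from its relatives, at 0.16 with Neurod2 and 0.06 with Neurod6, and its highest r over all 24 rats was 0.45, with Stmn2. Its r with Dcx was 0.41, but 0.76 without High 65 to 67 and 0.70 without the 2 rats farthest from the median of Neurod1. Within Control, Low and High that r was 0.80, 0.78 and -0.12.

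**Figure D3:**
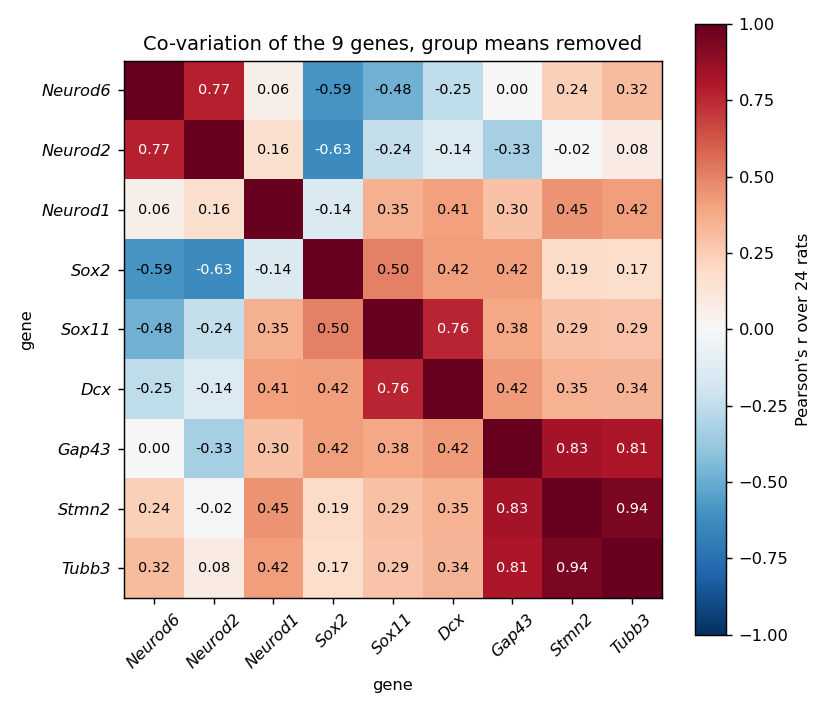
Each cell gives Pearson's r of 2 genes over 24 rats, after removal of the group means, on a scale from -1 to 1. Gap43, Stmn2 and Tubb3 form a block of 0.81 to 0.94, Sox11 and Dcx a pair at 0.76, and Neurod2 and Neurod6 a pair at 0.77.

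**Figure D4:**
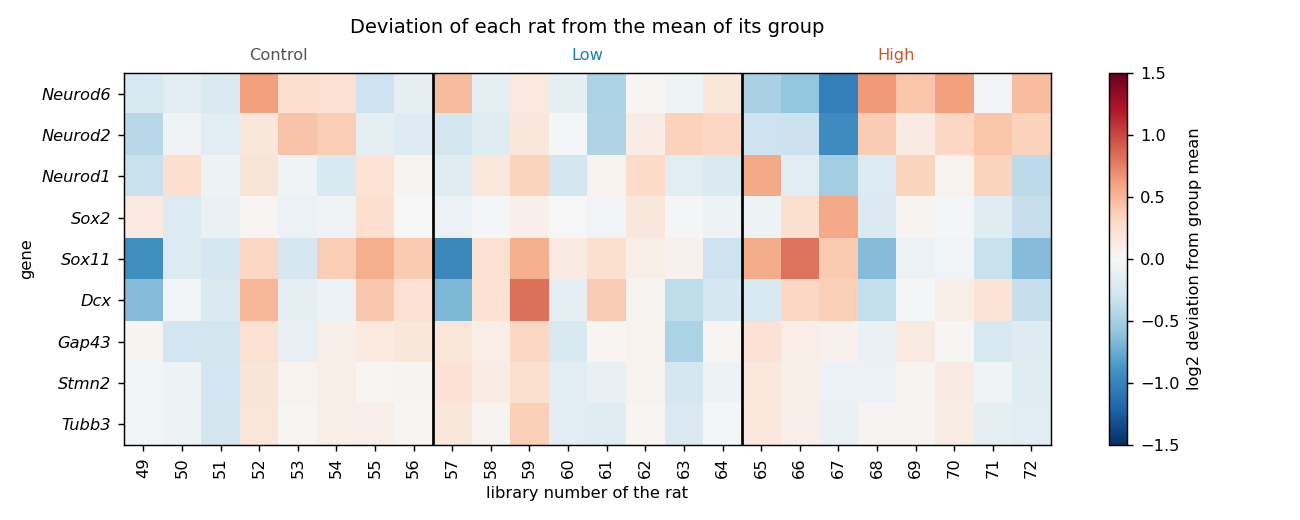
Colours give the log2 deviation of each rat (x axis, library number) from the mean of its own group for each gene. High 65 to 67 are low for Neurod2 and Neurod6, and Control 49 and Low 57 are low for Sox11 and Dcx.

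The marker sums moved with the 9 genes to differing degrees. The striatum marker sum went with Neurod6 at r of -0.76 over 24 rats (rho -0.73), and at -0.28, -0.84 and -0.86 within Control, Low and High. For Neurod2 it was -0.70, for Sox11 0.67 and for Sox2 0.66. Without High 65 to 67 the values were -0.50 for Neurod6, -0.45 for Neurod2, 0.49 for Sox11 and 0.65 for Sox2. Over all 24 rats r was 0.16 for Tubb3, 0.28 for Stmn2, 0.44 for Gap43, 0.42 for Dcx and 0.25 for Neurod1. Within Control, Low and High it was 0.62, 0.06 and 0.77 for Gap43 and 0.38, -0.11 and 0.61 for Stmn2. The neuron marker sum, which includes the cortical excitatory marker Slc17a7, went with Neurod2 at 0.93 (0.93, 0.88 and 0.95 within the groups) and with Neurod6 at 0.81. In Low against Control the 7 striatum markers had a median log2 difference of -0.57, with 0 past the threshold. The part of tissue composition in the differences between groups, that of Neurod6 included, was not tested.

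**Figure D5:**
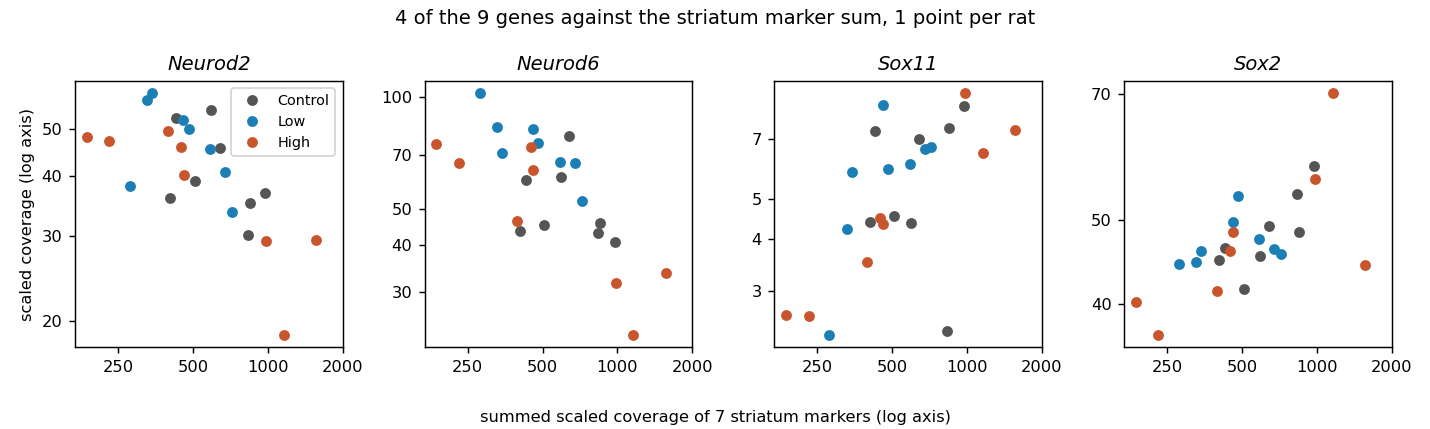
The scaled coverage of Neurod2, Neurod6, Sox11 and Sox2 (log axes) is plotted against the summed scaled coverage of 7 striatum markers, 1 point per rat. The 3 High rats with sums of 984 to 1564 have the lowest Neurod6 of the series, at 22.9 to 33.7.

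For each of the 9 genes, the 2 other named genes with the most similar pattern over the 24 rats, by the same r, were looked up among 12946 genes. Gap43 was followed by Crym (0.93), a thyroid hormone binding protein, and Ly6h (0.91). Tubb3 and Stmn2 shared Tubb2a, another beta-tubulin, at 0.95 and 0.93, with Ldha (0.89), lactate dehydrogenase, next for Tubb3 and Nipsnap1 (0.91) for Stmn2. Neurod2 went with Nptx1 (0.95), a secreted synaptic pentraxin, and Prickle1 (0.94), a planar polarity gene. Neurod6 went with Rxfp1 (0.96), the relaxin receptor, and Medag (0.95). Dcx went with Myo16 (0.93), an unconventional myosin, and Tshz1 (0.90), a zinc finger factor, and Sox11 with Lmo7 (0.92) and Vcan (0.91), the proteoglycan versican. Sox2 went with Cotl1 (0.87), an actin-binding protein, and Cpne2 (0.86). The r within Low was 0.34 for both of them, against 0.94 and 0.97 in High. Neurod1 had the loosest companions, Srpk3 (0.81) and Fam83h (0.80).

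Other genes of the same processes were counted in 8 lists written from general knowledge, with 97 entries, of which 83 were tested. In Low against Control 1 was higher and 2 were lower past the threshold, where 6.11% of all genes passed. In High against Control 0 passed, as over all genes. In Low against High 4 were higher and 3 lower, where 11.7% of all genes passed. Calls were thus not more frequent in the lists than over all genes. Of 7 other proneural bHLH factors only Bhlhe22 reached the filter, and it did not pass, with means of 27.1, 26.3 and 24.9 scaled coverage in Control, Low and High. The 12 partners and inhibitors of bHLH factors were all tested and 0 passed, with the E protein Tcf4 at 86.8 in Control and 96.9 in Low and the inhibitor Id3 at 54.8 and 61.3. Of 6 other SoxB and SoxC factors 2 were tested and 0 passed, namely Sox12 and Sox21, at 18.3 and 2.86 in Control and 19.1 and 3.04 in Low. The 24 axon guidance and adhesion genes had 0 calls, with Epha4 at 69.7 in Control and 86.1 in Low and L1cam at 70.4 and 74.7. Of 10 injury-induced regeneration genes 9 were tested and 0 passed; Jun, which rises in injured neurons, was 47.2 ± 7.46 in Control, 54.9 ± 8.65 in Low and 44.3 ± 12.9 in High, and Stat3 was 28.0, 30.5 and 26.4.

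Calls came from 3 lists. Among 19 growth cone and microtubule genes, Dclk1, the kinase related to Dcx, was lower in Low, at 82.7 ± 16.2 against 144 ± 30.2 scaled coverage in Control (log2 -0.79, limma adjusted p = 0.000610) and 126 ± 19.2 in High (log2 -0.61, adjusted p = 0.00563). Dclk2 was lower in Low than in High (log2 -0.42, adjusted p = 0.0469), and Map1b and Stmn1 were higher (log2 0.39 and 0.31, adjusted p = 0.0127 and 0.0381). Among 6 genes of myelin-associated growth inhibition, Rtn4, which encodes Nogo, was lower in Low than in Control (log2 -0.43, adjusted p = 0.000431) and in High (log2 -0.32, adjusted p = 0.00599), and Omg was higher in Low than in High (log2 0.30, adjusted p = 0.0118). Among 10 tested progenitor and neuroblast markers, Cd24 was higher in Low, at 55.4 ± 4.16 against 43.9 ± 5.01 in Control (log2 0.33, adjusted p = 0.0391) and 45.01 ± 8.86 in High (log2 0.32, adjusted p = 0.0344). 

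For 4 of these genes the deposited columns did not move together. A gene whose columns move together has a ratio of coverage to FPKM of 1, once divided by the library factor of the rat. For Dclk1 this ratio had a Control median of 0.795, a Low median of 0.436 and a High median of 0.798. For Dclk2 it was 0.916, 0.519 and 0.926, for Rtn4 0.155, 0.106 and 0.162, and for Stmn1 0.326, 0.288 and 0.336. On FPKM, relative to the median shift of all genes, Dclk1 differed by 0.03 between Low and Control on the log2 scale and Rtn4 by 0.13, so neither was lower in Low, and Stmn1 differed by 0.47 between Low and High instead of 0.22 on coverage. Without High 65 to 67, Cd24 (0.284), Omg (0.0982), Stmn1 (0.217), Map1b (0.117), Dclk2 (0.272) and Rtn4 (0.0586) did not pass in Low against High, the values being adjusted limma p. Without libraries 56 to 62, Cd24 (0.698) and Dclk1 (0.0946) did not pass in Low against Control, while Rtn4 did (0.0116), and in Low against High 7 of 7 calls were lost, with limma adjusted p of 0.0954 to 0.525. With these libraries as a covariate the 7 were lost too (0.103 to 0.446), and in Low against Control 1 of 3 was, Cd24 (0.518). Single rats also decided 4 of these calls. Cd24 was lost in Low against Control on leaving out any 1 of 11 rats (49, 50, 51, 53, 55, 57, 58, 59, 60, 62 and 64), with limma adjusted p up to 0.0862. In Low against High it was lost without any 1 of 7 (59, 62, 65, 66, 67, 71 and 72; up to 0.0770), Stmn1 without any 1 of 8 (57, 59 and 62 to 67; up to 0.0755) and Dclk2 without any 1 of 16 (50, 53, 54, 56, 57, 58, 60, 62 to 67 and 69 to 71; up to 0.1002). The calls of Dclk1, Rtn4, Omg and Map1b held in all 24 such fits but not under other settings. The exact Wilcoxon test lost Dclk1 (adjusted p = 0.1001) and Rtn4 (0.0557) in Low against Control and 4 of 7 in Low against High, Omg, Cd24, Stmn1 and Dclk2. With median-of-ratios scaling Cd24 was lost in both comparisons, and Omg (limma adjusted p = 0.104) and Stmn1 in Low against High. Without scaling Rtn4 (0.0785) and Cd24 were lost in Low against Control, and Omg, Map1b, Cd24 and Stmn1 in Low against High.

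For 8 of the 9 genes described here the median of that ratio was 1. Apart from Sox11, coverage and FPKM of these 8 differ by the library factor alone. Neurod1 had other medians, 0.689, 0.615 and 0.604 in Control, Low and High, and a range of 0.532 to 0.908 over the 24 rats. The mean log2 ratio of Neurod1 to Tubb3 in Control was -5.73 on FPKM and -6.25 on coverage. Sox11 reached ratios as low as 0.772 in Control and 0.659 in High, while its Low ratios stayed at 1. Relative to the median of all genes, its log2 difference in Low against High was 0.11 on coverage and -0.15 on FPKM. By the positions that the tables give, Neurod1 lies on chromosome 3 at 66414308 to 66417741 and Neurod6 on chromosome 4 at 85911861 to 85915099, both on the minus strand, Sox11 on chromosome 6 at 46629974 to 46631983 and Dcx on chromosome X at 115098675 to 115175299. The build named in the processing notes does not match these positions, as chromosome 1 entries run to 282724300, so they are quoted as deposited. In all 16 Control and High tables an assembled locus also lay over each of the 9 genes on the same strand, and for Gap43, Neurod6 and Sox11 it repeated the coverage of the reference row in 16 of 16.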

How the data were processed

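Poly(A) RNA of frontal cortex from 24 rats was sequenced with a stranded kit (TruSeq Stranded mRNA) on a NovaSeq machine. The submitters' processing notes name FastQC, Trimmomatic, TopHat2 and StringTie, without versions, and mRatBN7.2 as the build, which the positions in the tables exceed. The authors deposited 1 table per rat with coverage (a signal of mean read depth per base, not scaled), FPKM and TPM. The deposited TPM of a Low table sums to 1000000. Tables of the other groups also list assembled loci, and there the TPM column as deposited was treated as a score.

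Coverage of 32883 reference genes was scaled to a sum of 1000000 per rat. Genes with a mean of at least 1 were fitted with limma 3.58.1 (R 4.3.3, trend, robust) on log2(value + 1), 3 groups in 1 fit, no covariate, two-sided, with Benjamini-Hochberg adjustment over 15644 genes and 0.05 as threshold; fold changes of low genes are understated on that scale. The fit was tested on simulated data before use. Wilcoxon tests were exact. The tables hold no read counts, so no counting intervals are given, and p-values measure the spread between these rats. Named genes are the 9 genes, in each list and comparison up to 2 genes a direction with the largest change past the threshold (or the 2 most abundant where 0 passed), and the 2 most similar genes of each of the 9. The members and lists were chosen with earlier results of these data known; 2 list genes are not reported here and were left out of the sums and counts. Python 3.11.15, pandas 2.3.3, scipy 1.17.1 and matplotlib 3.10.9 were used.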

Additional observations from a re-analysis of the deposited data

How the results depend on the processing

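Of the 9 genes, 0 passed in the 3 comparisons as reported, and High against Control gave 0 under every alternative. With FPKM 8 passed in Low against Control and 8 in Low against High, where 89.7% and 89.8% of all genes did. With scaling by all rows 9 and 9 passed (93.7% and 93.8% of all genes). With TPM 2 (Neurod6, Tubb3) and 2 (Neurod6, Dcx) passed, against 25.4% and 25.2% of all genes. With assembled loci added to the reference rows of the 9 genes only, 7 and 6 passed, where 6.16% and 11.7% of all genes did. Low has no loci to add, so that setting can only lower Low against the other groups, and nothing is drawn from it. By construction, Low tables hold no assembled loci, and the median of all genes in Low against Control moved to 0.53 with FPKM, 0.81 with all rows and 0.17 with TPM on the log2 scale. Relative to that median the 9 genes lay between -0.20 and 0.47 with FPKM, and between -0.25 and 0.46 as reported. Neurod6 alone gave 1 call in Low against Control with only the groups compared and, chosen after seeing the data, without High 65 to 67, and 1 in Low against High with mitochondrial genes left out of the scaling. Leaving out 1 rat at a time gave 0 to 0 calls in Low against Control and in High against Control and 0 to 1 in Low against High, where 7 of 24 fits had a call. Over these 24 fits the sign of a value that never passed changed 8, 14 and 13 times. Pseudocount, both other filters on low values, no scaling, median-of-ratios scaling, the covariate for libraries 56 to 62, leaving those libraries out (also chosen afterwards) and the Wilcoxon test gave 0 in each comparison; with a minimum mean of 5, Neurod1 was not tested.

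In Low against Control the fitted values of Neurod1 (0.46 with all rows, 0.33 with FPKM) and Sox2 (0.77 and 0.46) rose above 0 with the median of all genes. Relative to that median they stayed below it, at -0.34 and -0.20 for Neurod1 and -0.042 and -0.074 for Sox2. Adding assembled loci raises Control and High only, and 7 of the 9 signs turned in Low against Control and 9 in Low against High. Those that turned and passed in Low against Control were Neurod2 (-1.40), Sox11 (-0.85), Tubb3 (-0.95), Stmn2 (-0.94) and Gap43 (-0.88). In Low against High they were Neurod1 (-1.23), Neurod2 (-1.27), Sox2 (-4.40), Tubb3 (-0.84), Stmn2 (-0.86) and Gap43 (-0.89). For Sox2 the added loci were weighted by their length, as in High 70, with 12834.6 added to a deposited coverage of 113.15. With all rows, FPKM and TPM, the fitted value of Rtn4 was 0.37, 0.66 and 0.25 in Low against Control and 0.43, 0.75 and 0.34 in Low against High, that of Dclk1 0.026, 0.56 and 0.15 and 0.14, 0.66 and 0.25, and that of Dclk2 in Low against High 0.31, 0.80 and 0.43. Relative to the median of all genes, these genes stayed lower with all rows (-0.43 and -0.36 for Rtn4, -0.78 and -0.64 for Dclk1, -0.47 for Dclk2). With TPM Dclk1 was at -0.017 in Low against Control, and with FPKM and TPM the other values were above the median. No paired analysis was possible because no replicate number is shared between groups. The precision that depth gives each gene could not be measured, since the tables hold no read counts.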
